A study of Homo sapiens with 24 samples.

Results

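The 10 mitotic kinesin genes KIF11, KIF14, KIF15, KIF18A, KIF20A, KIF20B, KIF22, KIF23, KIF2C and KIFC1 were followed through 24 RNA sequencing libraries of K562 cells, an established line from a human chronic myeloid leukaemia that carries erythroid traits. They were taken as a named list, and each symbol matched 1 of the 12285 gene identifiers in the expression table. The cells had been collected as a synchronous population by centrifugal elutriation, which sorts cells by size, and were then kept in RPMI with 10% bovine calf serum (BCS) and P/S, with no other treatment. Cells were removed at 2 h intervals up to 46 h, giving 1 library per time point and no replicates. The study named 16 h and 18 h as STRIPEs, time points at which many transcripts depart from those of their neighbours, so the tests on the 10 genes are given with and without these libraries.

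Kinesins are motor proteins that move along microtubules or take them apart at their ends. The mitotic members build and shape the spindle, bring chromosomes to its middle and organize the midzone from which a dividing cell is cut apart. Their genes are known for low transcript levels early in the cell cycle and high levels in G2 and mitosis. This timing is classically tied to a promoter element called the CHR (cell cycle genes homology region), which is often found downstream of CCAAT boxes.

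The promoters of the 10 genes were therefore searched for these letters. Promoter sequences were from RefSeq (GRCh38.p14) and ran from 250 bases before to 50 after each start. All 10 genes matched, KIF22 with a pair of starts. The CHR letters searched for, on either strand, were TTTGAA, the usual form, and its known variants TTCGAA and, with another base exchanged, TTTAAA. A single stretch of bases can match only 1 of these forms. At least 1 form was found in the promoters of 10 of 10 members, against 25.1% of 35116 RefSeq promoters. TTTGAA was found in 7 members (15.2% of all promoters), TTTAAA in 4 (12.2%) and TTCGAA in KIF22 alone (1.45%). CCAAT, on either strand, was found in 8 members (34.6%), and both elements together in 8 (9.7%). In a window chosen after the positions had been seen, from 60 bases before the start onward, a CHR form was found in 10 members and in 8.67% of all promoters. These are matches of letters only. The 30 bases around the match nearest the start of each gene are shown because all members share this feature, which the choice of genes did not use. Each is written 5′ to 3′ along the gene's own strand with the CHR letters in capitals. Where they read TTCAAA, the usual form lies on the other strand.
KIF11: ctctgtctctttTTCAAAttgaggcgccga
KIF15: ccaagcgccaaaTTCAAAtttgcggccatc
KIFC1: tggccgttggaaTTCAAAagtggcgggtgt
KIF2C: ttgcgcgcgggaTTTAAActgcggcggttt
KIF18A: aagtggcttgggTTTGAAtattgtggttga
KIF22: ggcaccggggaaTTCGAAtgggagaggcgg
KIF23: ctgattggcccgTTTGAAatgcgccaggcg
KIF20A: cgcagcgcgtaaTTTAAAatattgtatctg
KIF14: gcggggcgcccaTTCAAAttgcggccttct
KIF20B: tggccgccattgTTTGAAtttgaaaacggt

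These stretches were at chr10:92593090-92593119 (KIF11, plus strand), chr3:44761747-44761776 (KIF15, plus), chr6:33391815-33391844 (KIFC1, plus), chr1:44739822-44739851 (KIF2C, plus), chr11:28108149-28108178 (KIF18A, minus), chr16:29790712-29790741 (KIF22, plus), chr15:69414282-69414311 (KIF23, plus), chr5:138179059-138179088 (KIF20A, plus), chr1:200620733-200620762 (KIF14, minus) and chr10:89701602-89701631 (KIF20B, plus). The capital letters began before the annotated start in 7 genes, from −55 in KIF23 to −3 in KIF2C with the start counted as 0. They began within the first transcribed bases in KIF14, KIFC1 and KIF20B. KIF20B carried a further TTTGAA directly after the capitals. KIF15 and KIF2C were the members with a CHR form and no CCAAT in the searched window.

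The table held FPKM values (fragments scaled by transcript length and by mapped reads), from which neither depth nor counting error can be given. The summed FPKM was 566247 at 16 h and 591309 at 18 h and between 456791 and 520382 elsewhere. An unnamed gene, ENSG00000280102, was the most abundant transcript at 22 h, 28 h and 30 h, with up to 10270 FPKM. All 16 listed erythroid markers were in the table, with a summed level of 4540 to 9630 FPKM. Of the markers of other cells, 1 of 7 fibroblast genes (COL1A2, 1.70 to 3.94 FPKM) and 1 of 4 monocyte genes (LYZ, 10.7 to 28.2 FPKM) were analysed here.

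Leaving out 16 h and 18 h, over 22 time points, the members ranged from 10.7 to 74.0 FPKM in their mean level. KIF2C, which takes microtubules apart at their ends near the centromere, had the highest mean, 74.0 ± 10.8 FPKM (SD over time points, n = 22). KIF22, a chromosome-bound motor that pushes chromosome arms away from the spindle poles, followed at 70.2 ± 6.48 FPKM. The gap between their means was smaller than either SD, which holds the course over time and does not measure their order. KIF22 was above KIF2C at each time point from 0 h to 14 h and below it at each from 20 h on. KIFC1, which moves toward microtubule minus ends and draws spindle poles together, came next at 35.3 ± 5.06 FPKM. KIF23 was at 24.7 ± 5.31 and KIF11 at 21.8 ± 2.07 FPKM. KIF23 was below KIF11 at 0 h, 2 h, 4 h and 10 h and above it at the other time points. KIF14 (17.6 ± 4.43), KIF20A (17.1 ± 7.21), KIF20B (17 ± 2.41) and KIF15 (16.0 ± 1.83 FPKM) had means that lay close together. KIF18A, which shortens microtubule plus ends and steadies chromosomes at the middle of the spindle, was the least abundant at 10.7 ± 2.12 FPKM. FPKM is per length, so these levels may be set beside each other, but only roughly. Other differences between the genes, such as GC content, were not adjusted for here. The coefficient of variation over time ran from 9.2% in KIF22 and 9.5% in KIF11 to 25.2% in KIF14 and 42.1% in KIF20A.

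**Figure D1:**
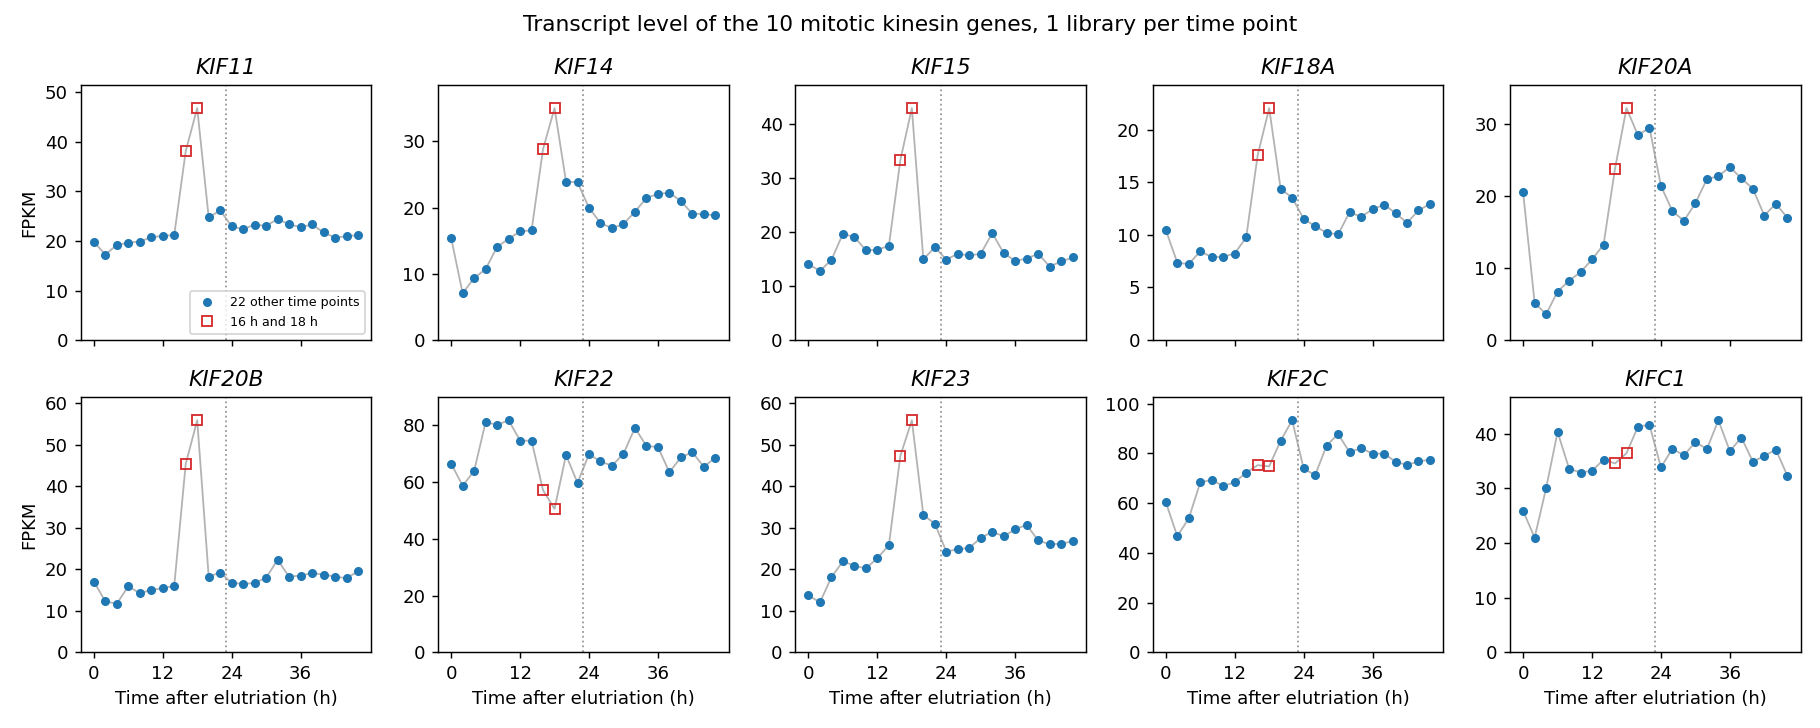
FPKM of each of the 10 genes (y axis, starting at 0) against time after elutriation in hours (x axis), 1 library per point, with 16 h and 18 h as red open squares and a dotted line between the days. KIF20A is at 20.5 FPKM at 0 h, 3.59 FPKM at 4 h and 29.5 FPKM at 22 h, and KIF22 is the member with its lowest value, 50.6 FPKM, at 18 h.

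In bulk RNA, fewer cells in a stage and less RNA per cell cannot be told apart, and the stage of the cells was not measured here. KIF20A, KIF14 and KIF23, which act in cytokinesis, had the widest ranges on the first day. KIF20A, which carries the chromosomal passenger complex to the midzone, stood at 20.5 FPKM at 0 h and had 5.18 and 3.59 FPKM at 2 h and 4 h. With 16 h and 18 h set aside, it was higher at each later time point of that day. It passed 6.74 FPKM at 6 h and 13.2 FPKM at 14 h and came to 29.5 FPKM at 22 h, 8.21 times its lowest value. KIF14, which binds the midzone protein PRC1 and citron kinase, was at 15.4 FPKM at 0 h and 7.07 at 2 h, and reached 16.6 at 14 h and 23.9 FPKM at 20 h. KIF23, the motor of the centralspindlin complex, was lowest at 2 h (12.0 FPKM, after 13.7 at 0 h) and highest at 20 h (33.0 FPKM, after 25.8 at 14 h). KIF20B, a midzone motor, ranged less, from 11.7 FPKM at 4 h to 19.2 FPKM at 22 h. All 4 thus had their low at 2 h or 4 h and their high at 20 h or 22 h.

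Of the motors that build the spindle, KIF11, which slides antiparallel microtubules apart and so separates the poles, was at 17.2 FPKM at 2 h, 21.2 at 14 h and 26.2 FPKM at 22 h. KIFC1 was at 21 FPKM at 2 h, 40.3 at 6 h and 32.9 to 35.2 from 8 h to 14 h, and reached 41.6 FPKM at 22 h. KIF15, which shares the work of KIF11 in keeping the spindle bipolar, took another course, with its first-day high of 19.7 FPKM at 6 h and 14.9 FPKM at 20 h. Of the motors that act on chromosomes and their attachments, KIF2C was at 46.7 FPKM at 2 h and 93.3 FPKM at 22 h, and KIF18A at 7.22 FPKM at 4 h and 14.4 FPKM at 20 h. KIF22 was at 58.7 FPKM at 2 h and highest at 10 h, at 81.8 FPKM, with 59.8 FPKM at 22 h.

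Counted over the first day without 16 h and 18 h, the highest value was at 20 h or 22 h in 8 of 10 members, against 25.2% of the 12253 genes that averaged 1 FPKM or more. The exceptions were KIF15 and KIF22. The lowest value was at 2 h or 4 h in 10 members, against 28.3% of genes. In 9 members this also held when each library was scaled by its median or its upper quartile, whereas KIF22 was then lowest at 22 h. All 10 members were lower at 2 h than at 0 h, as were 54% of genes. On the log2(FPKM + 1) scale, which was used for every difference and understates changes of low genes, the lower of 2 h and 4 h was at least 2-fold below 0 h in 2 members, against 1.91% of genes. These were KIF20A, with a difference of −2.23, and KIF14, with −1.02, which fell short of 2-fold after either scaling. These counts compare single libraries and have no test.

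**Figure D2:**
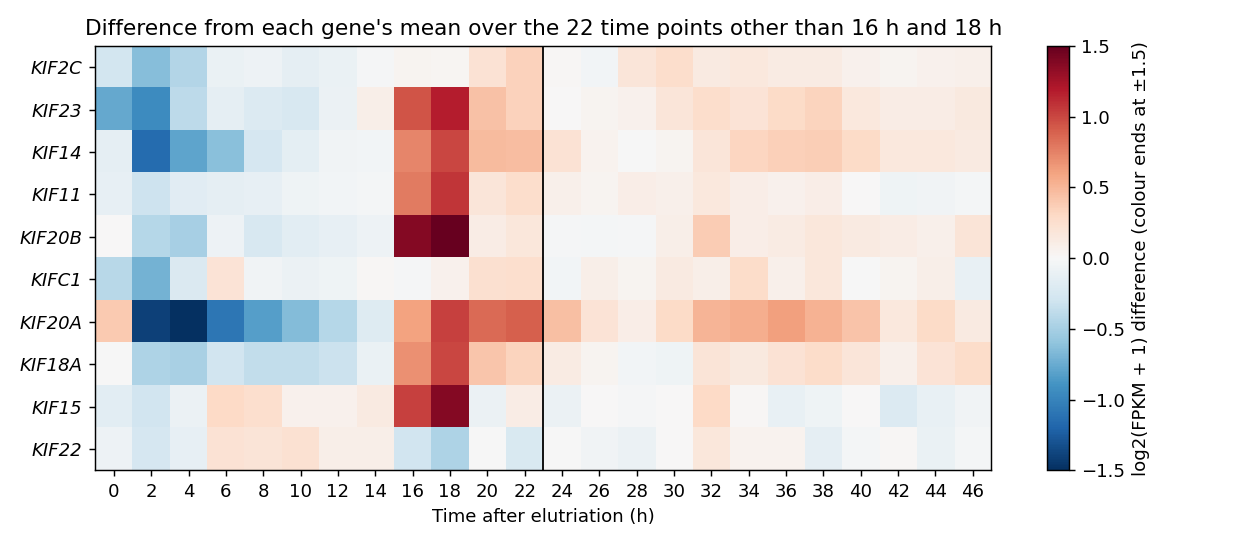
Difference of log2(FPKM + 1) from each gene's mean without 16 h and 18 h, with genes as rows, time after elutriation in hours as columns and a line between the days. Blue at 2 h and 4 h and red at 20 h and 22 h is seen in most rows, while KIF15 is red at 6 h and KIF22 is blue at 16 h and 18 h.

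To ask when the genes moved beyond the spread between neighbouring time points, successive 8 h windows of 4 time points each were compared with limma, with p-values adjusted over all 12253 genes (Benjamini–Hochberg, threshold 0.05). The time points of a window are not replicates, and the spread within a window includes the course of the gene. From 0–6 h to 8–14 h, 0 members passed, against 1.34% of genes in either direction. At an unadjusted p under 0.05 there were 4. Without the libraries of 16 h and 18 h, which widen the shared spread, 3 members rose at this step, against 4.34% of genes. KIF14 was 10.6 ± 3.5 FPKM in the first window and 15.6 ± 1.15 FPKM in the next (SD, n = 4), a rise of 0.56 ± 0.13 on the log2 scale (SE, adjusted p = 0.0150). KIF23 rose by 0.45 ± 0.12 (adjusted p = 0.0231) and KIF2C by 0.28 ± 0.08 (adjusted p = 0.0405). The library of 6 h also mattered: with it left out and the others kept, 4 members passed at this step, among 560 genes.

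From 8–14 h to 16–22 h, 7 members rose, against 25.1% of genes, and KIF22 fell, against 15.7% of genes. The largest rise was that of KIF20A, which was 8.25, 9.43, 11.2 and 13.2 FPKM at 8 h to 14 h and 23.8, 32.2, 28.4 and 29.5 FPKM at 16 h to 22 h. The windows did not overlap, and the difference was 1.37 ± 0.28 on the log2 scale (SE, adjusted p = 0.00207). KIF18A rose by 0.90 ± 0.12 (adjusted p = 0.000252), KIF20B by 0.98 ± 0.23 (adjusted p = 0.00441) and KIF23 by 0.84 ± 0.16 (adjusted p = 0.00149). KIF14 rose by 0.79 ± 0.15, KIF11 by 0.64 ± 0.13 and KIF2C by 0.24 ± 0.09 (adjusted p = 0.0480). The call of KIF2C was lost after median scaling (0.17, adjusted p = 0.155), upper-quartile scaling (0.13, adjusted p = 0.31) and PCHIP interpolation of 16 h and 18 h (0.27, adjusted p = 0.0894). KIF22 fell by 0.40 (SE 0.09, adjusted p = 0.00447), from 77.8 ± 3.75 to 59.3 ± 7.88 FPKM (SD, n = 4).

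Without 16 h and 18 h the later window held only 20 h and 22 h, and 6 members rose, against 3.5% of genes. KIF20A rose by 1.40 ± 0.35 (SE, adjusted p = 0.0277), KIF18A by 0.67 ± 0.11 (adjusted p = 0.00511), KIF14 by 0.59 ± 0.16 (adjusted p = 0.0397) and KIF23 by 0.50 ± 0.15 (adjusted p = 0.0469). KIF2C rose by 0.36 ± 0.10 and KIF11 by 0.29 ± 0.06. KIF20B, at 0.29 ± 0.11, no longer passed (adjusted p = 0.125), nor did KIF22, at −0.27 ± 0.10 (adjusted p = 0.109). KIFC1 and KIF15 passed in neither fit, with differences of 0.29 ± 0.14 and −0.11 ± 0.13 in the fit without 16 h and 18 h.

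From 16–22 h to 24–30 h, 6 members fell, against 17.5% of genes: KIF11, KIF14, KIF15, KIF18A, KIF20B and KIF23, by 0.50 to 0.83 on the log2 scale. At this step 0 members passed without 16 h, without 18 h or without both of these, against 13, 13 and 1 of the 12253 genes. Without 30 h, 322 genes passed, 2 members among them. In the fit without 16 h and 18 h, 4 members had an unadjusted p under 0.05, as did 886 genes. The largest of the 10 differences was then −0.61 ± 0.35 in KIF20A (SE, adjusted p = 0.75). From 24–30 h to 32–38 h, 0 members passed, against 0.0163% of genes, and from 32–38 h to 40–46 h, 0 members passed, against 0% of genes. At an unadjusted p under 0.05 there were 0 members at either step with all libraries, and 1 at each step without 16 h and 18 h. KIF20A had means of 18.7 ± 2.06, 22.9 ± 0.768 and 18.6 ± 1.85 FPKM in these 3 windows (SD, n = 4).

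On the second day the values moved less, and no step between its windows passed for any member. KIF20A was at 16.6 FPKM at 28 h and 24.0 FPKM at 36 h, and KIF14 at 16.9 FPKM at 28 h and 22.2 FPKM at 38 h. KIF23 was at 24.3 FPKM at 24 h and 30.6 FPKM at 38 h. The second-day high was at 30 h to 38 h in 9 members, against 52.4% of genes. KIF18A was highest at 46 h with 13 FPKM. In KIF11, KIF15, KIF20B and KIF22 it was at 32 h, which the study named as a milder irregular time point. Without that library it was at 34 h in KIF11, KIF15 and KIF22 and at 46 h in KIF20B.

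The peak to trough range was larger on the first day in all 10 members, when 16 h and 18 h were left out of it. Its median was 0.93 on the log2(FPKM + 1) scale on the first day and 0.36 on the second, against 0.57 and 0.49 over all genes. The range reached 2-fold in 3 members on the first day (11.6% of genes) and in 0 on the second (8.24% of genes). The 3 were KIF20A (2.73), KIF14 (1.63) and KIF23 (1.39). KIF2C (0.98), KIFC1 (0.96) and KIF18A (0.90) lay just inside 2-fold, and KIF22 had the smallest first-day range, at 0.47. On the second day the ranges ran from 0.23 in KIF11 to 0.51 in KIF15 and KIF20A.

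**Figure D3:**
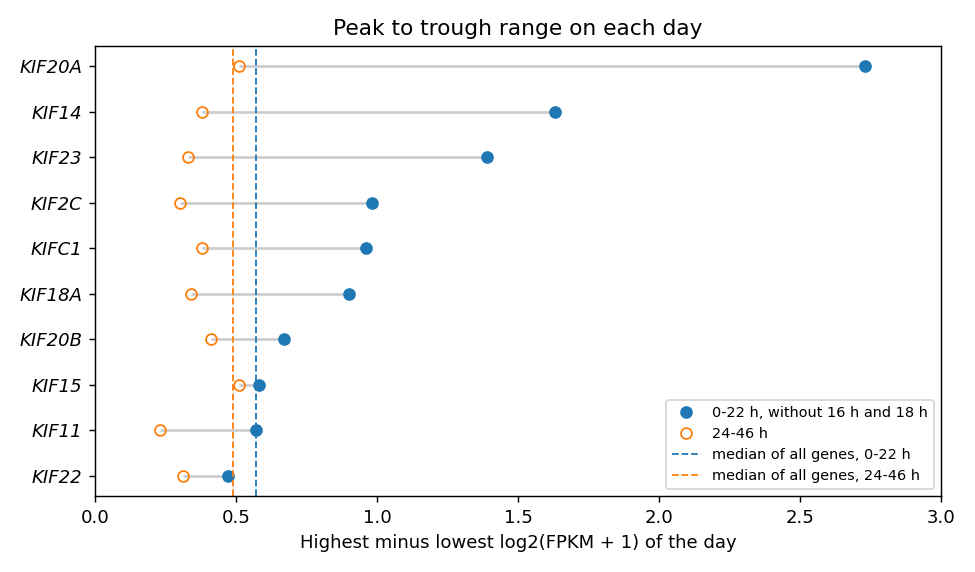
Highest minus lowest log2(FPKM + 1) of each gene on the first day without 16 h and 18 h (filled) and on the second day (open), with the median of all genes as dashed lines at 0.57 and 0.49. All 10 genes lie further right on the first day, from 0.47 in KIF22 to 2.73 in KIF20A, and all lie at 0.51 or below on the second.

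Whether the course differed between the days was tested in a limma fit of a 24 h cosine and sine with day as an interaction, which tests amplitude and phase together, an analysis added after the courses had been seen. It passed for 5 members, against 5.84% of genes. The amplitude of KIF20A was 1.18 ± 0.13 on the log2 scale (SE) on the first day and 0.18 ± 0.13 on the second (adjusted p = 0.00556). KIF14 had amplitudes of 0.76 ± 0.09 and 0.14 ± 0.09 (adjusted p = 0.0201), and KIF18A of 0.59 ± 0.08 and 0.10 ± 0.08 (adjusted p = 0.0261). KIF11 (0.44 ± 0.08 and 0.08 ± 0.08) and KIF23 (0.68 ± 0.12 and 0.12 ± 0.12) also passed. The fitted peak of these genes was at 16.6 h to 18.4 h of the first day, and at 7.7 h (KIF11), 11.7 h (KIF20A), 12.0 h (KIF23), 14.0 h (KIF14) and 16.1 h (KIF18A) counted from the start of the second. The second-day amplitudes were close to their SE, so the peak hours of that day are poorly determined and cannot tell whether the phase shifted. Without 16 h and 18 h, 3 members passed, against 4.85% of genes. These were KIF20A (1.19 ± 0.17 and 0.18 ± 0.13, adjusted p = 0.00770), KIF11 (0.19 ± 0.05 and 0.08 ± 0.04, adjusted p = 0.0358) and KIF18A (0.41 ± 0.06 and 0.10 ± 0.05, adjusted p = 0.0392). Day, time since elutriation and age of the culture cannot be told apart in this design.

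The mean level of the second day was set against the first at the 12 matched hours. With all libraries 0 members passed in limma, against 14.6% of genes, and 2 had an unadjusted p under 0.05. Without 16 h and 18 h, 5 members were higher on the second day, against 12.6% of genes. KIF20A was higher by 0.79 ± 0.24 on the log2 scale (SE, adjusted p = 0.0379, higher at 8 of 10 hours), with means of 13.6 FPKM on the first day and 20.2 FPKM on the second over these 10 hours. KIF14 was higher by 0.41 ± 0.13 (adjusted p = 0.0386), KIF23 by 0.35 ± 0.11, KIF18A by 0.30 ± 0.08 and KIF20B by 0.24 ± 0.07, each at 8 of 10 hours. When the libraries of 0 h to 4 h were also left out, an alternative chosen after seeing the data, 0 members passed. KIF20A was then at 0.62 ± 0.27 (adjusted p = 0.141), KIF18A at 0.28 ± 0.10, KIF14 at 0.25 ± 0.13, KIF20B at 0.22 ± 0.08 and KIF23 at 0.19 ± 0.10, and 3 members had an unadjusted p under 0.05. A fit without 6 h, 16 h, 18 h and 32 h was also chosen after seeing the data. In it 0 members passed, against 1771 of 12253 genes.

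The study ranked genes by their order in time with JTK_CYCLE, and its statistic was taken here for an assumed period of 24 h, with a permutation p from 100000 orderings. It called 2 of 10 members, against 13% of all 12285 genes. KIF18A had an adjusted permutation p of 0.0255 and KIF14 of 0.0292, both with the fitted peak at 18 h. KIF22 (0.0660), KIF20B (0.0810), KIF23 (0.0981) and KIF20A (0.127) missed the threshold, and the others were at 0.368 to 0.856. When 16 h and 18 h were dropped, neither KIF18A (0.0822) nor KIF14 (0.0903) was called, and KIF22, with its peak at 10 h in the fit of all libraries, was the 1 member called (0.0434). Of the 12285 genes, 1993 were called without 16 h and 18 h. A single library decided the calls of the members: 1 member was called without 6 h, 8 h or 16 h, and 0 without 18 h. These 4 fits called 937 to 1415 genes. In the authors' cleaned table, 4 members were called, against 1425 of the 12285 genes. The 4 were KIF20B (0.0128), KIF18A (0.0201), KIF14 (0.0351) and KIF23 (0.0424). The deposited table equalled Z-scoring followed by quantile normalization to within 9e-16.

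At 16 h and 18 h themselves the 10 genes differed in direction. KIF20B had 45.4 and 55.9 FPKM there, between 16.0 FPKM at 14 h and 18.2 FPKM at 20 h, and was nowhere else above 22.2 FPKM. KIF15 was at 17.5, 33.3, 42.9 and 14.9 FPKM over the 4 time points from 14 h to 20 h. KIF11 was at 21.2, 38.1, 46.8 and 24.7 FPKM, and KIF23 at 25.8, 47.3, 55.8 and 33.0 FPKM. In these 4 genes both libraries lay above every other time point, and so they did in KIF14 (28.8 and 35.0 FPKM) and KIF18A (17.6 and 22.0 FPKM). KIF2C (75.2 and 74.7 FPKM) and KIFC1 (34.6 and 36.4 FPKM) lay within the range of the other time points. KIF22 was lower at 16 h and 18 h, at 57.1 and 50.6 FPKM, than at any other time point.

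Measured from a line drawn from 14 h to 20 h, the mean distance was 1.51 in KIF20B (2.84-fold) and 1.18 in KIF15 (2.27-fold) on the log2 scale. These 2 members were at least 2-fold above the line, against 8.95% of genes, and 0 were at least 2-fold below it, against 7.11%. KIF11 (0.86), KIF23 (0.80), KIF18A (0.69), KIF14 (0.65) and KIF20A (0.49) lay above it by less. KIF2C (−0.06), KIFC1 (−0.10) and KIF22 (−0.42) lay at or below it. The median was 0.67 over the members and 0.14 over all genes. KIF15 came to 0.95 after scaling by the upper quartile, just under 2-fold.

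The GC content of the longest annotated transcript differed between these genes. It was 34.2% in KIF20B, 37.0% in KIF18A, 38.3% in KIF11 and KIF14, 41.2% in KIF15 and 42.3% in KIF23. It was 48.4% in KIF20A, 50.4% in KIF2C, 57.9% in KIFC1 and 58.9% in KIF22. Over all genes the median distance was 0.52 under 42% GC (3254 genes, 15.3% of them at least 2-fold above the line) and −0.04 at 42% or more. With a smooth trend on GC content removed, the distance was 0.93 in KIF20B, 0.73 in KIF15, 0.38 in KIF23 and 0.24 in KIFC1, and 0 members were at least 2-fold above. KIF22 then lay at −0.03. The part of GC content in the levels at 16 h and 18 h was not tested beyond this.

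**Figure D4:**
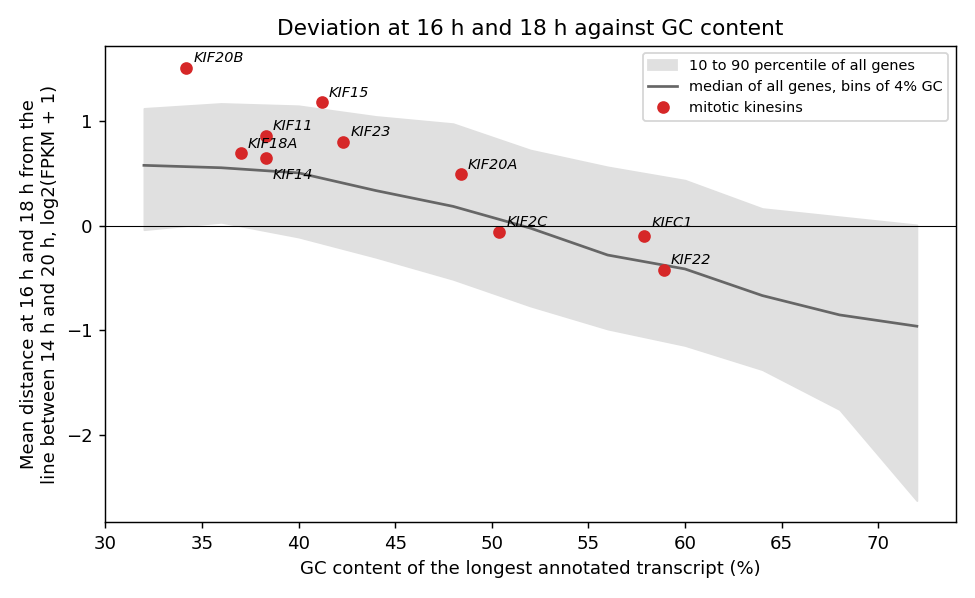
Mean distance of log2(FPKM + 1) at 16 h and 18 h from the line between 14 h and 20 h (y axis) against the GC content in percent of the longest annotated transcript (x axis), for the 10 genes (red points) and for all genes in bins of 4% GC (grey line, median; band, 10 to 90 percentile). KIF20B at 34.2% GC lies highest, at 1.51, and KIF22 at 58.9% GC lies lowest, at −0.42.

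Smaller departures were seen at 32 h and at 6 h, 22 h, 28 h and 30 h, of which the study named only 32 h as irregular. The members lay above the mean of their neighbours by a median of 0.17 at 6 h (0.05 over all genes), 0.09 at 32 h (0.03) and 0.13 at 22 h (0.04), and −0.10 from the line across 28 h and 30 h (−0.01). KIFC1 had the largest distance at 6 h, 0.33, and KIF15 and KIF20B were at 0.29 at 32 h.

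Over the 22 time points without 16 h and 18 h, 8 members followed a shared course. Pearson's r of log2(FPKM + 1) between any pair of them lay between 0.56 and 0.93. Against the mean Z-score profile of the 10 genes, r was 0.95 in KIF2C, 0.92 in KIF23, 0.91 in KIF14, 0.90 in KIF11, 0.88 in KIF20B, 0.87 in KIFC1, 0.83 in KIF20A and 0.80 in KIF18A. It was 0.40 in KIF15 and 0.26 in KIF22. Each of the 10 genes is itself part of this mean, which raises its r, unlike that of genes outside the list. KIF15 and KIF22 had r = 0.68 with each other over these time points and −0.40 over all 24. With all 24 libraries, KIF15 and KIF20B had r = 0.87, against 0.19 without 16 h and 18 h. These are descriptions: the points are successive libraries of 1 time course and share their scaling.

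Among the genes outside the list, those with a course most like the mean of the 10 over all 24 time points were NEK2 (r = 0.966), BUB1B (0.953), KNSTRN (0.952), RACGAP1 (0.950), TOP2A (0.950), HJURP (0.950), CDCA2 (0.946), CKAP2L (0.944), EEF1AKMT3 (0.940) and NUDT6 (0.934). In the ranking without 16 h and 18 h, RACGAP1, which forms centralspindlin with KIF23, came first at 0.952, and 6 of the 10 genes were in both rankings. CDCA8 (0.949), AURKA (0.939), ESPL1 (0.930) and GTSE1 (0.927) entered. GTSE1 had r = 0.618 and ESPL1 r = 0.714 over all 24 time points.

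The other kinesins and kinesin light chains, most of which carry cargo between divisions, served as a comparison, with 25 of 39 listed genes analysed here. From 8–14 h to 20–22 h, without 16 h and 18 h, 2 of the 25 rose and 1 fell in limma, set beside the 6 and 0 of the 10 mitotic members. Of all 12253 genes, 429 rose (3.5%) and 264 fell. CENPE, a kinetochore motor, rose by 1.0 ± 0.23 on the log2 scale (SE, adjusted p = 0.0223), and KIF1B, a transporter of vesicles and mitochondria, by 0.37 ± 0.11 (adjusted p = 0.0446). KIFC2 fell by 0.76 (SE 0.17, adjusted p = 0.0170). The mitotic motors KIF4A and KIF18B, which were not on the list of 10, were at 0.38 ± 0.13 (adjusted p = 0.0932) and 0.06 ± 0.22 (adjusted p = 0.903). Without 16 h and 18 h, r with the mean kinesin profile was 0.75 in KIF4A, 0.72 in KIF18B and 0.72 in CENPE. The median of the 25 was 0.39. JTK called 3 of the 25 with all libraries, near the 13% of all genes. The 3 were KIF1B (adjusted permutation p = 0.0229), KIFC2 (0.0380) and KLC2 (0.0380). Without 16 h and 18 h it also called 3, against 1993 of 12285 genes. The first-day range had a median of 0.57 in the 25 genes and 0.93 in the 10. It reached 2-fold in 3 of the 25, against 11.6% of genes: CENPE (1.60), KIFC2 (1.24) and KIF18B (1.18). KIF4A was at 0.97. At 16 h and 18 h, the largest distances among the 25 were those of KIF3A (1.83) and KIF2A (1.54), the latter at 117 and 140 FPKM against at most 52.5 FPKM on the rest of the first day.

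Of 30 partners and regulators of the mitotic kinesins, 10 rose and 0 fell from 8–14 h to 20–22 h in the same fit. Of all genes, 3.5% rose there. With 16 h and 18 h included, 17 of the 30 rose and 0 fell, against 25.1% of all genes that rose. PLK1, the kinase that prepares several of these motors for the midzone, was lowest at 4 h (30.4 FPKM) and highest at 20 h (94.4 FPKM) on the first day without 16 h and 18 h, and rose by 0.88 ± 0.24 (SE, adjusted p = 0.0382). JTK called 2 of the 30 with all libraries, against 13% of all genes: CDK1 (adjusted permutation p = 0.0380) and NEK7 (0.00256). Without 16 h and 18 h it called 3, against 1993 of 12285 genes. CDK1, the mitotic kinase, was at 89.5 FPKM at 0 h and 205 FPKM at 20 h. NEK7 is a kinase of the cascade that brings KIF11 to the spindle poles. Its r with the mean kinesin profile was 0.02 without 16 h and 18 h. ANLN, a scaffold of the cleavage furrow, was at 65.7 and 90.3 FPKM at 16 h and 18 h against at most 32.1 FPKM elsewhere on the first day, a distance of 1.33, and PLK1 was at 1.14. The median distance of the 30 genes was 0.35.

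Lists of G2/M and G1/S genes were set beside the kinesins. In the 23 G2/M genes, 10 rose and 0 fell from 8–14 h to 20–22 h without 16 h and 18 h, against 3.5% of all genes that rose. Of the 23, 20 had a first-day range of at least 2-fold, set beside 3 of the 10 kinesins and 11.6% of all genes. HMMR rose by 1.19 ± 0.29 (SE, adjusted p = 0.0252), CCNB1, the mitotic cyclin, by 0.89 ± 0.25 (adjusted p = 0.0465), ASPM by 0.73 ± 0.17 (adjusted p = 0.0210), CKAP2 by 0.47 ± 0.10 (adjusted p = 0.0128) and TTK by 0.42 ± 0.10 (adjusted p = 0.0283). CCNB1 was at 65.0 FPKM at 4 h and 237 FPKM at 22 h. TOP2A, also named by the JTK rule, was at 0.34 ± 0.12 (adjusted p = 0.106). JTK called 9 of the 23, against 13% of all genes. Without 16 h and 18 h it called 2 of the 23, against 1993 of 12285 genes. The median r with the mean kinesin profile was 0.82 for the G2/M genes, 0.78 for the partners and 0.39 for the other kinesins, without 16 h and 18 h.

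The 22 G1/S genes had a median r of −0.50, and from 0–6 h to 8–14 h, without 16 h and 18 h, 14 of them fell, against 4.77% of all genes, and 1 rose. CCNE2, a cyclin of S phase entry, was at 38.9 FPKM at 2 h and 13.5 FPKM at 14 h (adjusted permutation p in JTK = 0.00446). GINS2, MCM2 and MCM5, parts of the replicative helicase, were highest at 2 h or 4 h and were each called at 0.00256. JTK called 11 of the 22, against 13% of all genes, and 14 without 16 h and 18 h. CDT1 had the largest fall at 16 h and 18 h, with a distance of −1.02, and MCM4 a distance of 0.89. Of 23 factors of late cell-cycle transcription, 0 rose and 0 fell from 8–14 h to 20–22 h in limma without 16 h and 18 h. Of all genes, 3.5% rose there. JTK called 7 of the 23, against 13% of all genes, and 8 without 16 h and 18 h. The 3 with the lowest adjusted permutation p were E2F4 (0.00647), E2F2 (0.0106) and E2F1 (0.0155). E2F1 was highest at 2 h, at 30.5 FPKM. LIN37 (−1.60) and NFYC (1.43) departed most at 16 h and 18 h.

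**Figure D5:**
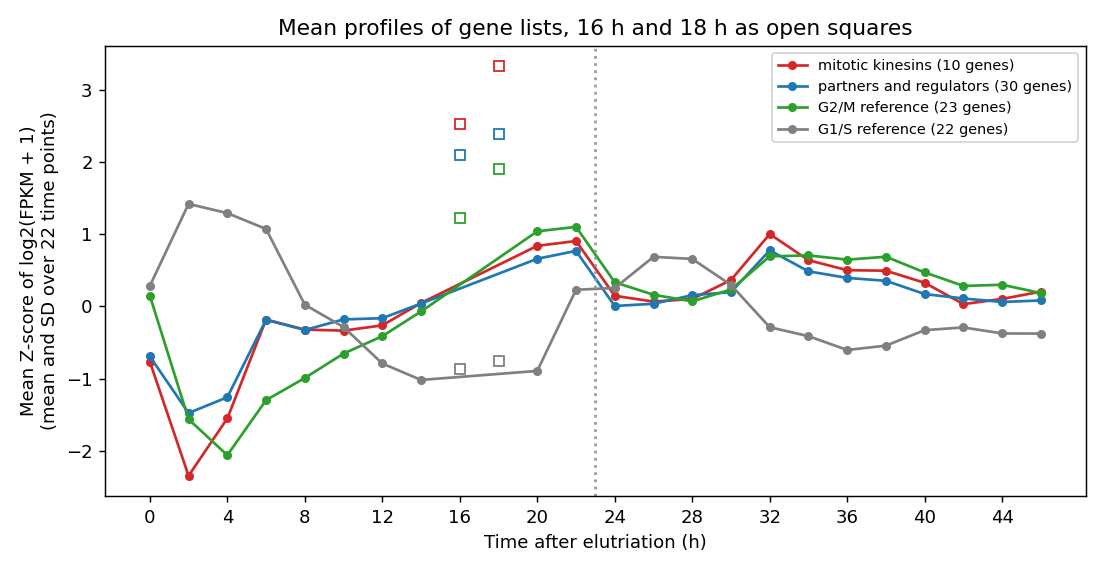
Mean Z-score of log2(FPKM + 1) (y axis; mean and SD of each gene over 22 time points, without 16 h and 18 h) against time after elutriation in hours, for the 10 mitotic kinesins, 30 partners and regulators, 23 G2/M genes and 22 G1/S genes, with 16 h and 18 h as open squares. The kinesins, partners and G2/M genes are low at 2 h or 4 h and high at 20 h and 22 h, and the G1/S genes are high from 2 h to 6 h and low from 12 h to 20 h. Outside 16 h and 18 h, the kinesins (1.001) and partners (0.775) are highest at 32 h, which the study named as milder irregular.

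Some members share exon bases with a gene on the opposite strand in GENCODE 29, and whether the authors' counting used strand is not given in the sources used here. KIF20A shares 132 bases with BRD8 and 68 with CDC23, of 3958 exon bases in all, and KIF18A shares 61 with METTL15. KIF22, KIF23, KIF2C and KIFC1 overlap antisense genes or a pseudogene by 175 to 561 bases.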

How the data were processed

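RNA from K562 cells at 24 time points, 1 library each, was assigned to hours by the sample labels. The authors aligned reads with STAR to GRCh37 and quantified and normalized them with Cufflinks and Cuffnorm, and the deposited values are FPKM. Versions and annotation are not given in the sources used here. Every gene reached 1 FPKM at 12 or more time points. The authors also deposited a cleaned table holding a score, a Z-score quantile-normalized across time points. Depth is unknown from FPKM, so no count test was used.

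Differences were fitted with limma 3.58.1 (trend, R 4.3.3) on log2(FPKM + 1), over genes averaging 1 FPKM or more, and adjusted over all genes. JTK compared each gene with a 24 h cosine at 12 phases, kept the highest Kendall S, and was called at an adjusted permutation p of at most 0.05. Likeness was Pearson's r with the mean Z-score of the members. GC content and exon overlap were from GENCODE 29 (GRCh38). Scripts were tested on simulated data. With 1 library per time point, p-values measure only the spread between time points.

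Named were all members, the 10 genes most like their mean, CCNE2 and CCNB1, and of each gene list the 3 called by JTK with the lowest p and the 2 with the largest distance at 16 h and 18 h. CENPE, KIF4A and KIF18B and the genes of the second likeness ranking were named after their values were seen. The members and gene lists were chosen with earlier results of these data known, as were the tests. Alternatives were other scalings, filters, pseudocounts, periods and corrections, and leaving out libraries. The result of 1 marker list is not reported here.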

Additional observations from a re-analysis of the deposited data

Results flagged for a closer look

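The fitted 24 h course differed between the first and the second day in 5 mitotic kinesin genes, by the interaction of cosine and sine with day in limma, which does not separate amplitude from phase. The adjusted p was 0.00556 in KIF20A, 0.0201 in KIF14, 0.0261 in KIF18A, 0.0340 in KIF11 and 0.0476 in KIF23. The test was added after the courses had been seen. Without 16 h and 18 h it was 0.00770 in KIF20A, 0.0358 in KIF11, 0.0392 in KIF18A, 0.0573 in KIF14 and 0.186 in KIF23. Time since elutriation and day cannot be told apart.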

How the results depend on the processing

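The limma cosine, a test other than JTK, called 2 members among 1123 genes, and with trend 1 member among 1436 genes. The number of members called by JTK was 2 with all libraries, 1 without 16 h and 18 h, and 0 without 6 h, 16 h, 18 h and 32 h. It was 4 after ZQN or upper-quartile scaling, and 0 with a period of 20 h, 28 h or 16 h (the last chosen after seeing the data). Leaving out each time point in turn gave 0 to 3, with 0 reached without 18 h. Over all 12285 genes, JTK called 1602 with all libraries, 1993 without 16 h and 18 h and 1425 after ZQN. With a period of 20 h, 28 h or 16 h it called 460, 447 and 0 genes. From 0–6 h to 8–14 h, 0 members passed with all libraries, 3 without 16 h and 18 h or with PCHIP interpolation, 6 without 6 h, 16 h, 18 h and 32 h (chosen after seeing the data), 1 after median or upper-quartile scaling, and 0 to 4 with each time point left out (4 without 6 h, 2 without 0 h). From 8–14 h to 16–22 h, 8 passed, 7 after median or upper-quartile scaling, 4 with PCHIP interpolation, and 7 to 8 with each time point left out. From 16–22 h to 24–30 h, 6 passed, 0 without 16 h and 18 h, without those and 6 h and 32 h, or with PCHIP interpolation, and 0 to 7 with each time point left out (0 without 16 h or 18 h, 2 without 30 h). Over all genes, 4044 passed this step, 1 without 16 h and 18 h, and 120 with PCHIP interpolation. The later steps gave 0 under every alternative run. Between the days, 0 members passed, and 5 without 16 h and 18 h. Without 6 h, 16 h, 18 h and 32 h (chosen after seeing the data) it was again 0. There were 1 after upper-quartile scaling, 4 with PCHIP interpolation, and 0 to 1 with each time point left out (1 without 22 h or 46 h). Fits without the pairing of matched hours gave 0 as well. The interaction with day gave 5, and 3 without 16 h and 18 h. Members at least 2-fold above at 16 h and 18 h were 2, 1 after upper-quartile scaling, 6 at 1.5-fold and 0 with the GC trend removed. Members with a first-day range of 2-fold were 3, 7 with 16 h and 18 h, and 7 at 1.5-fold. Of the 10 genes most alike, 6 were shared without 16 h and 18 h and 5 with Spearman ranks. No member called between windows changed sign under another scaling, filter, pseudocount or correction. FPKM with 1 library per time point gives no counting error, so small differences between neighbouring time points cannot be judged.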
